A study of Mus musculus with 9 samples.

Results

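The genes described here are 10 components of the route from the receptor Gpr161 to cyclic AMP (cAMP) and protein kinase A (PKA), measured in the midbrain of mouse fetuses at E13.5. They were chosen by name and not by a rule on their values, though with earlier results of these data known. They are Gpr161 itself, its ciliary adaptor Tulp3, the Gs alpha subunit Gnas, the adenylyl cyclases Adcy3, Adcy5 and Adcy6, the catalytic subunits of PKA Prkaca and Prkacb, and its regulatory subunits Prkar1a and Prkar2b. Each symbol stood in 1 row of the deposited table, and all 10 were among the 14029 genes tested, of 21356 named genes in all. The 9 libraries fall into 3 genotypes with 3 libraries each on a C57BL/6 background. The floxed control is Gpr161f/f with no Cre, the Cre control is Gpr161f/+;Wnt1-Cre, and the conditional knockout (cKO) is Gpr161f/f;Wnt1-Cre, spelled Gpt161f/f;Wnt1-Cre in its label. All groups therefore carry at least 1 floxed allele and none is wild-type, and both the Cre control and the cKO carry the Wnt1-Cre transgene. Cre from this transgene acts in cells that descend from Wnt1-expressing cells, among them the dorsal neuroectoderm of the midbrain and the neural crest, so cells of other origin in the dissected tissue keep an intact gene. Nothing in the labels says whether a library came from 1 fetus or from a pool, or which fetuses were littermates, and p-values measure the spread between these libraries.

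Gpr161 is a G protein-coupled receptor without a known ligand that sits in the primary cilium, where it is carried by Tulp3 together with the intraflagellar transport complex A. It couples to Gs, the G protein that switches on adenylyl cyclases, the membrane enzymes that make cAMP. cAMP binds the regulatory subunits of PKA and frees the catalytic subunits. In the absence of Sonic hedgehog (Shh), PKA phosphorylates Gli transcription factors and so promotes their processing into repressors. Gpr161 is in this way a brake on Shh signaling, and it leaves the cilium when the pathway is switched on. The RNA level of these genes says nothing of the cAMP concentration or of the activity of the kinase, neither of which the table holds.

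The transformation of the deposited table is not stated, and its values appear normalized between libraries and shrunken for weakly expressed genes. Unless another scale is named, every value below is the log2 value of that table. A difference is the difference of group means on that scale, tested with limma on all 14029 genes with Benjamini-Hochberg adjustment, and a gene was called changed at an adjusted p under 0.05. A DEG in addition differed by more than 1.5-fold. The table holds no read counts, so the depth of the libraries is unknown.

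The libraries differed in other tissue markers as well. All 12 of the neuronal markers listed were lower in the cKO than in the floxed control, and together they held 0.581% to 0.622% of the linear values in floxed controls, 0.463% to 0.555% in Cre controls and 0.401% to 0.448% in the cKO. All 10 cell cycle genes were higher in that comparison (0.129% to 0.138%, 0.146% to 0.166% and 0.166% to 0.198% in the same order of groups). When the cKO was set against the Cre control, 4 of the neuronal markers were lower and 5 of the cell cycle genes higher. Over all genes tested, 4.85% were called lower and 4.86% higher in this comparison. In the same comparison 4 of 9 erythroid markers, all DEGs, and 3 of 12 neural progenitor markers were higher, with list medians of 0.86 and 0.082. Of all genes, 0.563% were DEGs there. Against the floxed control, 5 of 12 neural progenitor markers were higher and 2 lower. There 6 of 9 erythroid, 6 of 8 mesenchymal and meningeal and 3 of 6 endothelial markers were higher. Over all genes tested, 19.5% were called higher and 18.8% lower against the floxed control. Of the 6 microglial markers none was called in any comparison, at an unadjusted p under 0.05 in at most 1. As for the labelled tissue, all 6 midbrain markers were detected, among them Pax5 higher and Pax7 lower, while the forebrain gene Emx1 was under the filter and of the 3 forebrain genes tested 0 were called and 1 was at an unadjusted p under 0.05. Of 5 hindbrain genes, Hoxa2, Hoxb2 and Hoxb3 were called lower in the cKO against the floxed control (list median -0.85). The list median was -0.87 between the Cre and the floxed control. There 0 were called and 3 were at an unadjusted p under 0.05 by limma, beside 0.057% and 17.5% of all genes. No gene of these lists was at 0 in every library. Cre control replicate 1 stood apart from the other libraries, with an array weight of 0.21 beside 0.707 to 2.1 for the others, and comparisons with the Cre control are given with and without it where this matters.

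Gpr161 was not lower in the libraries labelled cKO. The log2 value was 11.80, 11.74 and 11.78 in the floxed control libraries, 11.77, 11.91 and 11.96 in the Cre control and 11.74, 11.95 and 11.94 in the libraries labelled cKO. The lowest value of all 9 was shared by a floxed control and a library labelled cKO, and the ranges of the groups overlapped. The difference between the libraries labelled cKO and the floxed control was 0.11 (95% confidence interval -0.04 to 0.25, limma adjusted p = 0.223), an interval that runs from 2.68% below to 19.1% above the floxed control on the linear scale. Against the Cre control it was 0.00033 (95% confidence interval -0.15 to 0.15, limma adjusted p = 0.998), or from 9.57% below to 10.6% above. The Cre control, which carries 1 intact and 1 floxed allele, differed from the floxed control by 0.11 (adjusted p = 0.415). Gpr161 lies on the plus strand of chromosome 1 of GRCm38 from 165295789 to 165326745, and its single value counts the whole gene, with or without its floxed part, so these values do not check the deletion at the level of an exon or of the protein. In the settings where the receptor passed the limit against the floxed control it was higher, at 0.14 with array weights (adjusted p = 0.0397), at 0.18 after correction for GC content and transcript length (0.0223) and at 0.18 without cKO replicate 1 (0.0471).

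The Shh target genes are the conventional readout of this brake. The 3 genes read here, Gli1, Ptch1 and Hhip, rose in the libraries labelled cKO against both controls, with every cKO value above every control value. The activator Gli1 was at 8.55 to 8.71 in the floxed control, 8.60 to 8.69 in the Cre control and 9.60 to 9.80 in the cKO, 1.08 above the floxed control mean and 1.05 above that of the Cre control (limma, adjusted p = 3.17e-05 and 7.49e-05). Hhip, which binds Shh ligand, differed by 1.34 and 1.28. The receptor Ptch1 differed by 0.67 and 0.75. All 3 were DEGs in both comparisons, beside 2.92% and 0.563% of all genes. The study had chosen Shh signaling as its question, so this list is no independent evidence of direction.

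**Figure D1:**
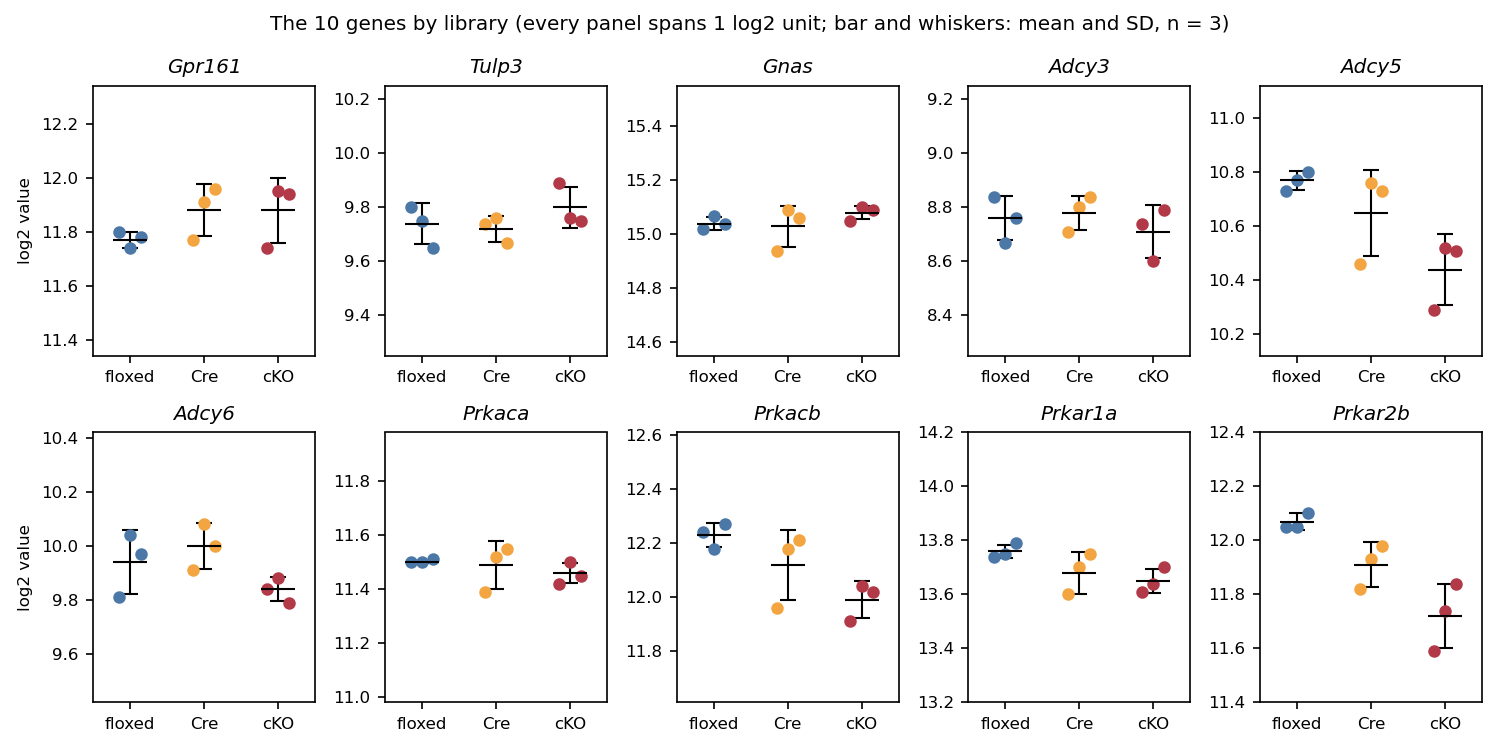
Log2 value (vertical axis) of each of the 10 genes in each of the 9 libraries, as points by genotype, with bars at the group mean and the SD over 3 libraries. The groups overlap for Gpr161, while the cKO points of Adcy5, Prkacb, Prkar1a and Prkar2b lie below all floxed control points.

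The components of the cascade were expressed at very different levels. They are set side by side here in cpm per kilobase of annotated exon. The cpm were taken from the deposited log2 values made linear and not from read counts. Gnas and Prkar1a stood highest, at a mean of 121 (range over the 9 libraries 114 to 125) and 120 (113 to 127), and their ranges overlapped. The exon length of Gnas, 10.4 kb, includes exons of alternative transcripts of this imprinted locus, so its level per kilobase depends on which of them were transcribed. Other genes share this limit to unlike degrees. The mean annotated transcript has 1837.5 bases beside 2488 of exon for Prkaca, and 2732.75 beside 5211 for Prkacb. The order of genes at similar levels therefore depends on the length used. Prkaca followed at 42.4 (40.4 to 44.2), Prkar2b at 38.9 (31.1 to 44.1) and Prkacb at 31.4 (27.1 to 34.7), and each of these overlapped its neighbour. Gpr161 lay at 19.5 (18.0 to 20.9), below the range of every PKA subunit among the members and above that of every cyclase. The cyclases and Tulp3 were lowest, with Adcy5 at 8.34 (6.56 to 9.31), Tulp3 at 7.34 (6.80 to 7.99), Adcy6 at 5.95 (5.33 to 6.69) and Adcy3 at 3.16 (2.83 to 3.36). Adcy5 overlapped both Tulp3 and Adcy6, the range of Tulp3 lay above that of Adcy6, and Adcy3 lay below all others. Among the relatives outside the 10 genes, the PKA inhibitor Pkia was at 72.4, the regulatory subunits Prkar2a and Prkar1b at 32.6 and 28.0, and no other cyclase exceeded the 3.63 of Adcy1 on the same scale.

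**Figure D2:**
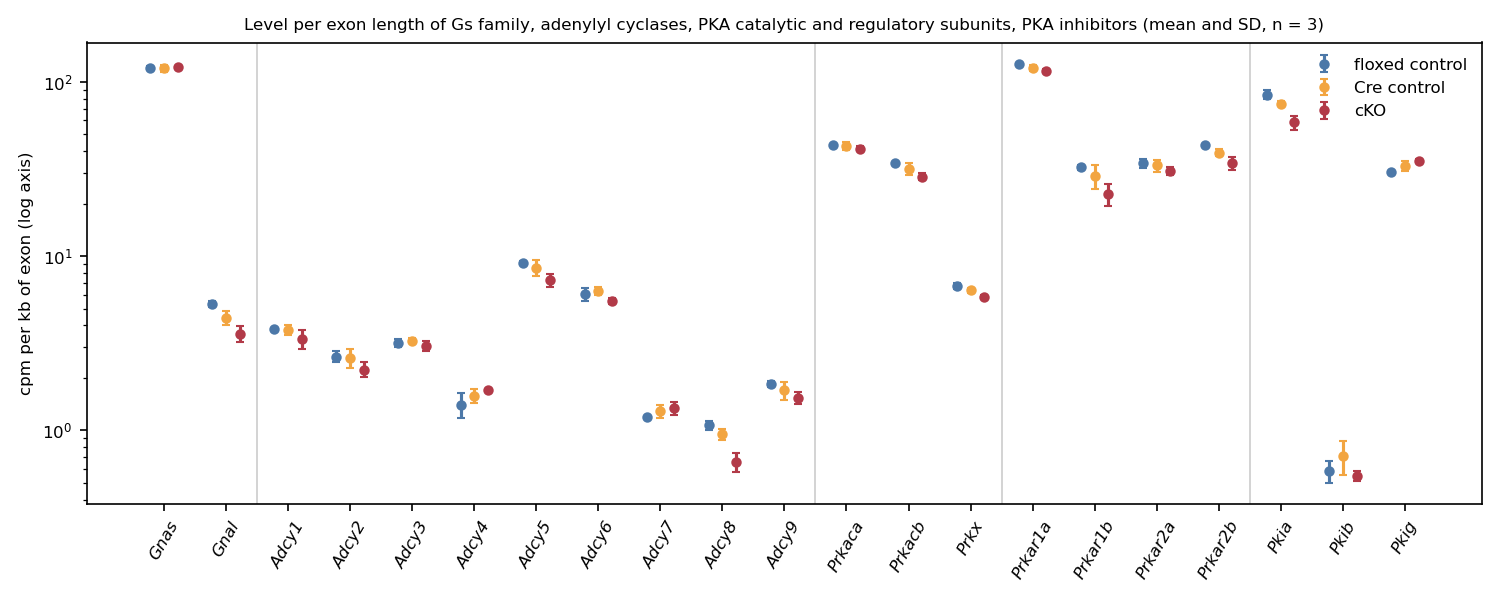
Level in cpm per kilobase of exon (log axis) of the Gs family, the adenylyl cyclases, the PKA subunits and the PKA inhibitors, as the mean and SD of 3 libraries for each genotype, with grey lines between the families. Gnas and Prkar1a stand highest at 121 and 120 over all 9 libraries, and every cyclase lies below every PKA regulatory subunit.

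In the cKO against the floxed control, 3 of the 10 genes were lower and 0 higher, beside 18.8% of all genes tested that were lower, 19.5% that were higher and 38.3% in either direction. The 3 are Adcy5, Prkacb and Prkar2b, 1 enzyme that makes cAMP, 1 catalytic and 1 regulatory subunit of PKA. None was a DEG, beside 2.92% of all genes, and 4 of the 10 were at an unadjusted p under 0.05, beside 48.1%. The median difference over the 10 genes was -0.075, and that of all genes tested was 0.011. With the Cre control as reference 0 of 10 were called by limma, beside 9.72% of all genes, and 3 were at an unadjusted p under 0.05, beside 29.3%. The median of the 10 was then -0.051, with 0.012 for all genes. Between the controls 0 of 10 were called as well, beside 0.057% of all genes, and 1 was at an unadjusted p under 0.05, beside 17.5%. The comparisons share libraries, so their values for a gene are not independent of each other.

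**Figure D3:**
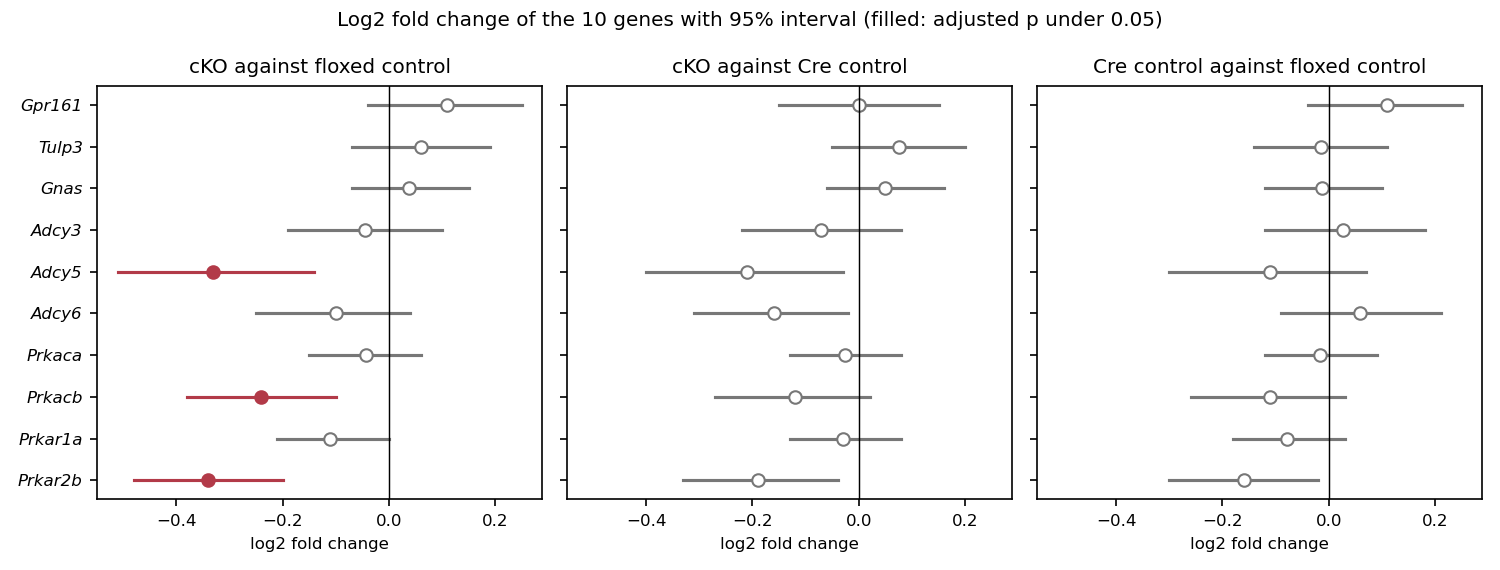
Difference in log2 value (horizontal axis) with its 95% confidence interval for the 10 genes in each of the 3 comparisons. Filled points passed an adjusted p under 0.05 by limma, which Adcy5, Prkacb and Prkar2b did for the cKO against the floxed control alone.

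Tulp3, the adaptor that brings Gpr161 into the cilium, lies on chromosome 6 (128321161 to 128355851, minus strand) and did not pass the test. Its value was 9.80, 9.75 and 9.65 in the floxed control, 9.74, 9.76 and 9.67 in the Cre control and 9.89, 9.76 and 9.75 in the cKO. The groups overlapped, with the highest value in cKO replicate 1. The difference was 0.061 against the floxed control (limma, adjusted p = 0.422) and, with the Cre control, 0.076 (0.397).

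Gnas, which encodes the Gs alpha subunit, spans 174284320 to 174346744 on the plus strand of chromosome 2. It was at 15.02, 15.07 and 15.04 in the floxed control, 14.94, 15.09 and 15.06 in the Cre control and 15.05, 15.10 and 15.09 in the cKO. The lowest library was Cre control replicate 1, and the others lay within a narrow band in every genotype. The differences were 0.037 against the floxed control (limma, adjusted p = 0.585) and, with the Cre control, 0.049 (0.536), and the direction turned under quantile normalization. Nespas and Gm20721 overlap Gnas on the opposite strand, as Cenpo does Adcy3 and Gm29331 does Adcy6, and the counting is not stated to use strand, so reads of these partners cannot be told apart.

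Among the cyclases, Adcy5 fell in the cKO against the floxed control and the other two did not pass. Adcy5 (chromosome 16, 35154877 to 35305738, plus strand) was at 10.73, 10.77 and 10.80 in the floxed control, 10.46, 10.76 and 10.73 in the Cre control and 10.29, 10.52 and 10.51 in the cKO. All cKO libraries were below all floxed controls, while Cre control replicate 1 lay among the cKO values and the other Cre controls among the floxed ones. The difference from the floxed control was -0.33 (SE 0.084, 95% confidence interval -0.51 to -0.14, limma adjusted p = 0.0126), which is 0.798 times the floxed control level. Without cKO replicate 1 it was -0.25 with an adjusted p of 0.0507, and the call was lost. The difference from the Cre control was -0.21 (95% confidence interval -0.4 to -0.03, limma adjusted p = 0.127), and without Cre control replicate 1 it was -0.31 (adjusted p = 0.0114).

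Adcy6, like Adcy5 a cyclase that calcium inhibits, lies on the minus strand of chromosome 15 from 98589973 to 98610076. Its values were 9.81, 10.04 and 9.97 in the floxed control, 9.91 to 10.08 in the Cre control and 9.84, 9.88 and 9.79 in the cKO. The cKO libraries were below all Cre controls, the only gene of the 10 for which this held, beside 13.7% of all genes, but overlapped the floxed control through its replicate 1. The difference was -0.16 against the Cre control (limma, adjusted p = 0.137) and -0.1 against the floxed control (0.238). Adcy3, the cyclase used as a marker of neuronal cilia (chromosome 12, 4133103 to 4213525, plus strand), was at 8.84, 8.67 and 8.76 in the floxed control, 8.71, 8.80 and 8.84 in the Cre control and 8.74, 8.60 and 8.79 in the cKO. These ranges overlapped throughout. The differences were -0.045 (adjusted p = 0.623) and -0.072 (0.501) against the floxed and the Cre control.

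Of the catalytic subunits, Prkacb fell and Prkaca did not pass. Prkaca (chromosome 8, 83972993 to 83996443, plus strand), the catalytic subunit found in most tissues, was at 11.50, 11.50 and 11.51 in the floxed control, 11.39, 11.52 and 11.55 in the Cre control and 11.42, 11.50 and 11.45 in the cKO, a difference of -0.043 against the floxed control (limma, adjusted p = 0.492) and, with the Cre control, -0.026 (0.738). Prkacb (chromosome 3, 146729574 to 146812990, minus strand), which is abundant in brain, was at 12.24, 12.18 and 12.27 in the floxed control, 11.96, 12.18 and 12.21 in the Cre control and 11.91, 12.04 and 12.02 in the cKO. The cKO was below every floxed control, with Cre control replicate 1 again among the cKO values. Its difference from the floxed control was -0.24 (SE 0.064, 95% confidence interval -0.38 to -0.1, limma adjusted p = 0.0152), 0.847 times the floxed control level. The call was lost without floxed control replicate 3 (-0.22, adjusted p = 0.0581) and without cKO replicate 1 (-0.20, adjusted p = 0.0636). From the Cre control it differed by -0.12 (adjusted p = 0.221), and -0.20 (0.0139) without Cre control replicate 1.

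Prkar2b carried the largest fall of the 10 genes against the floxed control. It encodes the RII beta regulatory subunit, the main type II subunit of brain, and lies on the minus strand of chromosome 12 from 31958476 to 32061296. Its values were 12.05, 12.05 and 12.10 in the floxed control, 11.82, 11.93 and 11.98 in the Cre control and 11.59, 11.74 and 11.84 in the cKO. Both Cre-carrying groups were below every floxed control, which for the Cre control was true of this gene alone among the 10, beside 12.1% of all genes, and the cKO and Cre control overlapped by 1 library each. The cKO differed from the floxed control by -0.34 (SE 0.063, 95% confidence interval -0.48 to -0.2, limma adjusted p = 0.00287), 0.789 times its level. This call was kept in every alternative run, with adjusted p between 0.000395 and 0.0152. The Cre control comparison gave -0.19 (95% confidence interval -0.33 to -0.04, adjusted p = 0.0895) and, without Cre control replicate 1, -0.23 (0.0279). The Cre control differed from the floxed control by -0.16 (adjusted p = 0.25).

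Prkar1a, the type I regulatory subunit found in most tissues (chromosome 11, 109649405 to 109669656, plus strand), was at 13.74, 13.75 and 13.79 in the floxed control, 13.60, 13.70 and 13.75 in the Cre control and 13.61, 13.64 and 13.70 in the cKO. All cKO values were below the floxed control, by small amounts, which made it the fourth gene with such a gap beside Adcy5, Prkacb and Prkar2b (4 of 10, beside 27.3% of all genes). The difference was -0.11 against the floxed control (limma, adjusted p = 0.0951) and, with the Cre control, -0.029 (0.71). Prkar1a passed the limit against the floxed control in 5 of 21 alternatives, with quantile normalization (-0.16, adjusted p = 0.0105), with libraries centred on their medians (0.0486), with only the 6 libraries compared (0.0280), with array weights (0.0212) and without Cre control replicate 1 (0.0216). The summed neuronal markers were lower in the same order of groups as Prkar2b, Prkacb and Adcy5, and the part of cell composition in these differences was not tested. In bulk tissue, fewer cells of a type and less RNA per cell cannot be told apart.

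The promoters of the 3 genes that fell, and of Prkar1a, are shown because the cAMP response element, TGACGTCA, is the site through which PKA acts on transcription by way of CREB. Each window runs from 250 bases before to 50 bases after a RefSeq start site on GRCm38.p6, 5′ to 3′ on the strand of the gene, and capitals mark the letters TGACG or its complement CGTCA.
Adcy5, chr16:35154614-35154913, plus strand: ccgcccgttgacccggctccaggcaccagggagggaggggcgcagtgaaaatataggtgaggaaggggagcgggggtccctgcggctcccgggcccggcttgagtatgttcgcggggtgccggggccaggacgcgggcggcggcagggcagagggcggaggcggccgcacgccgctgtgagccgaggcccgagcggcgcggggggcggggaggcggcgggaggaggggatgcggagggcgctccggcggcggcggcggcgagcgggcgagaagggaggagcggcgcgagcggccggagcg
Prkacb, chr3:146812897-146813196, minus strand: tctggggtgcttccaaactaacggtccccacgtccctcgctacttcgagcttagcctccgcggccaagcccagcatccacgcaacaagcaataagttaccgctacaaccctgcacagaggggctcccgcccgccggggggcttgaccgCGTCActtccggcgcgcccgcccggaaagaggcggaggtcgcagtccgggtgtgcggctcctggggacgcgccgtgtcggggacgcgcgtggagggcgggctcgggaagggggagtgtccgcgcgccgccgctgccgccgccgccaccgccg
Prkar2b, chr12:32061228-32061527, minus strand: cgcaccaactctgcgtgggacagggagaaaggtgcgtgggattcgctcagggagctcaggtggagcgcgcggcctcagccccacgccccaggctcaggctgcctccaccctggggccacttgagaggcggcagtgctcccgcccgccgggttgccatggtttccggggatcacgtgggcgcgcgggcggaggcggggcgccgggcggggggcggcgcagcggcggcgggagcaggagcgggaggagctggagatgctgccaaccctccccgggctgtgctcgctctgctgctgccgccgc
Prkar1a, chr11:109650612-109650911, plus strand: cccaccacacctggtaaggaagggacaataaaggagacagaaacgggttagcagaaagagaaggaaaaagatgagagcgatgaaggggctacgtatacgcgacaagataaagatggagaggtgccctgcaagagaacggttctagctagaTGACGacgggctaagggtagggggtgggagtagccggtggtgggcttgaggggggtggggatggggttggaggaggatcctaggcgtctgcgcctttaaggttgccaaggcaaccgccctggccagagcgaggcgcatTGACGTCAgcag

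RefSeq gave 23 such windows for 9 of the genes, several per gene, some of which overlap, and none for Adcy6. The full TGACGTCA was in 2 of the 23 windows, both of Prkar1a and overlapping, so that they hold the same site, beside 2.94% of the 14137 windows of genes tested and 1.79% of all 32851. The short form, TGACG on either strand, which every full site also holds, was in 8 of 23 windows (34.8%), beside 29.4% and 20.8%. The windows printed for Adcy5 and Prkar2b held neither form, that of Prkacb held CGTCA once, 102 bases before the start, and that of Prkar1a held the full site after its start and a short form 100 bases before it. The windows of Prkacb and Prkar2b that are not printed held neither form. Among those of Prkar1a that are not printed, some held neither form and another held a short form alone. In the overlapping window of Prkar1a that is not printed (chr11:109650699-109650998), the same full site begins 49 bases before the start. A match describes letters and not a bound site, and its absence covers this window alone.

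Taking related subunits as a difference within each library removes any factor that scales a whole library. Prkacb minus Prkaca was 0.74, 0.68 and 0.76 in the floxed control, 0.58, 0.65 and 0.66 in the Cre control and 0.49, 0.54 and 0.57 in the cKO. The 3 genotypes did not overlap, and the Cre control lay between the others. The means were 0.73 ± 0.043, 0.63 ± 0.044 and 0.53 ± 0.043 (SD, n = 3), and the genotypes differed at p = 0.00357 in an exact permutation test over 280 partitions of the libraries, the smallest p it can give (0.00714 after Benjamini-Hochberg adjustment over 4 pairs). Leaving out each library in turn, the shift from floxed control to cKO was between -0.22 and -0.17. The exact permutation test over the 3 genotypes, which does not test that shift alone, then gave adjusted p from 0.00714 to 0.0357.

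The regulatory subunits behaved likewise. Prkar2b minus Prkar1a was -1.69, -1.70 and -1.69 in the floxed control, -1.77, -1.77 and -1.76 in the Cre control and -2.02, -1.90 and -1.86 in the cKO. The values in each control group were within 0.01 of each other, while the cKO libraries spread more and lay below both controls. The cKO mean, -1.93 ± 0.084 (SD, n = 3), was 0.23 lower than that of the floxed control, and the 3 genotypes differed at p = 0.00357 by the exact permutation test (0.00714 adjusted). Relative to their partners, the subunits Prkacb and Prkar2b were thus lowest in the cKO, with the Cre control between it and the floxed control. Genotype enters this test as 3 groups, and it does not say which pair of them differed. How many other pairs of genes would reach the same p was not counted.

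Adcy5 minus Adcy6 was 0.83 ± 0.095, 0.65 ± 0.094 and 0.60 ± 0.13 in the floxed control, Cre control and cKO (SD, n = 3), and the genotypes were not told apart (exact permutation p = 0.107, adjusted 0.143). Tulp3 minus Gpr161 was -2.04 ± 0.077, -2.16 ± 0.13 and -2.08 ± 0.20 in the same order (SD, n = 3; exact permutation p = 0.6, adjusted 0.6).

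**Figure D4:**
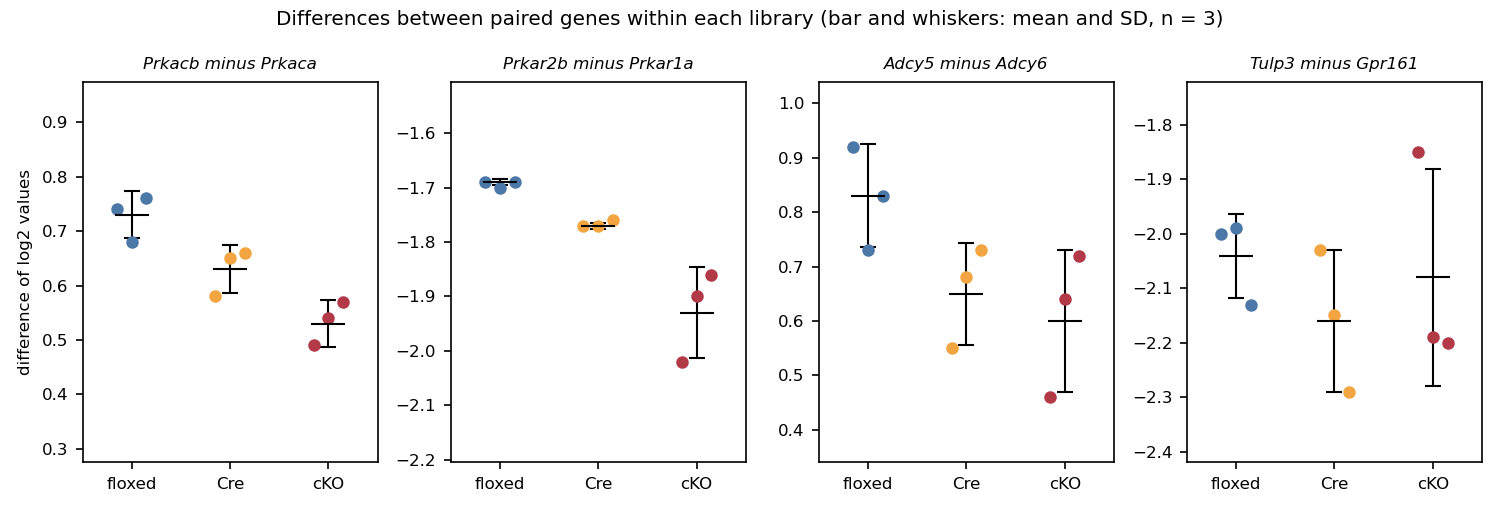
Difference in log2 value between 2 related genes within each library (vertical axis), by genotype, with the group mean as a bar. The genotypes do not overlap for Prkacb minus Prkaca (0.73, 0.63 and 0.53 on average) and for Prkar2b minus Prkar1a, and they overlap for the other pairs.

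The genes whose levels over the 9 libraries were most like those of Gpr161, by Pearson's r over all genes tested, were Sgpl1 (0.93), Klf15 (0.90), Cfap100 (0.90), Slc11a1 (0.87) and D11Wsu47e (0.86). Sgpl1 ranged from 11.55 to 11.71, in Cre control replicate 1 and cKO replicate 2. Among the other 9 genes of the cascade, r with Gpr161 was between -0.34 for Tulp3 and 0.56 for Gnas, which stood at rank 640. These correlations rest on 9 libraries that appear to share a normalization and are given as a description.

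The wider pathway was read from 111 listed symbols, of which 105 were tested. In the cKO against the floxed control 47 of them (44.8%) were called, 14 higher and 33 lower, beside 38.3% of all genes. With the Cre control as reference 12 (11.4%) were called, beside 9.72% of all genes. Of these, 6 were higher and 6 lower, beside 4.86% and 4.85% of all genes. The 3 Shh targets are part of the 105 and were among those called higher in both comparisons. Between the controls 0 were called by limma, beside 0.057% of all genes. At an unadjusted p under 0.05 no list had more than 4, beside 17.5% of all genes. The lists with 4 were the anchoring proteins, of 13 tested, and the CREB targets, of 11 tested. The number called in a list depended on single libraries. The share of all genes called with a library left out is not given here. These counts therefore cannot be set against those of other genes. Without Cre control replicate 1, the cKO and Cre control comparison called 8 G protein genes in place of 3, 4 phosphodiesterases in place of 0, 5 anchoring proteins in place of 1, 5 genes of ciliary delivery in place of 1, 3 PKA subunits and inhibitors in place of 1, and 2 each of the cyclase, Epac and CREB, and Gli lists in place of 1, 0 and 1. Apart from the Shh targets, every list had 0 or 1 called in that comparison when Cre control replicate 2, Cre control replicate 3, cKO replicate 1 or cKO replicate 2 was left out. Against the floxed control, 3 phosphodiesterases, 3 genes of ciliary delivery and 2 CREB targets were called without floxed control replicate 1, in place of 6, 7 and 4. Without Cre control replicate 1, 5 genes of the cyclase list were called in place of 2, and 4 without Cre control replicate 2. Of the Gli list 1 gene in place of 4 was called without floxed control replicate 3, and 2 without floxed control replicate 1, cKO replicate 1 or cKO replicate 3. Ciliary delivery had 4 called in place of 7 when floxed control replicate 3, cKO replicate 1 or cKO replicate 3 was left out. The Shh targets kept 3 in all omissions. The genes named below that were called against 1 control only were chosen after their values were seen.

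The other PKA subunits and inhibitors were called in both directions. Of 6 tested, Prkar1b, Prkx and Pkia were lower and Pkig higher relative to the floxed control, beside 38.3% of all genes called, and the list's median was -0.16. Pkia, which encodes an inhibitor peptide that blocks the catalytic subunits, was at 13.05, 12.92 and 13.11 in the floxed control, 12.80, 12.82 and 12.92 in the Cre control and 12.37, 12.54 and 12.63 in the cKO. The 3 genotypes overlapped only between the controls, at 12.92. The differences were -0.52 against the floxed control (limma, adjusted p = 0.000913) and, with the Cre control, -0.33 (0.0242). The second call was lost in 6 of 21 alternatives. Among them were those without Cre control replicate 2 or 3 (0.0537 and 0.0881) and without cKO replicate 1 or 2 (0.0816 and 0.0605). Prkar1b, a regulatory subunit of neural tissue, differed by -0.51 (0.0114) and -0.31 (0.139), and the inhibitor Pkig by 0.22 (0.00632) and 0.11 (0.157).

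Of 8 other genes on the list of adenylyl cyclases that were tested, which includes the cyclase-associated proteins, Adcy8 was lower and Cap2 higher against the floxed control, beside 38.3% of all genes called, with a median of -0.051. Adcy8, a cyclase that calcium stimulates, was at 7.59, 7.61 and 7.77 in the floxed control, 7.41, 7.59 and 7.43 in the Cre control and 6.78, 7.14 and 6.98 in the cKO. The cKO lay below both controls. The differences were -0.69 (limma, adjusted p = 0.000884) and -0.51 (0.0155), and the second was lost without Cre control replicate 3 (0.0502) or cKO replicate 1 (0.0526). At a level of 0.892 cpm per kilobase, Adcy8 was far below Adcy5.

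The list of other G protein alpha subunits holds 12 genes, of which Ric8a and Ric8b are chaperones of these subunits. Against the floxed control 2 were higher and 6 lower, Ric8b among the lower, beside 38.3% of all genes called. With the Cre control as reference 1 was higher and 2 were lower, beside 9.72%. Gnal, the Gs relative of the olfactory system and striatum, fell by 0.55 from the floxed control (limma, adjusted p = 0.00189) and was at -0.28 against the Cre control (0.0773). Among the subunits of the Gi family, which inhibit cyclases, Gnai2 and Gnai3 were higher against the floxed control, while Gnai1, Gnao1 and Gnaz were lower. Of these, only Gnai2 and Gnaz were also called against the Cre control. Gnai2 was at 13.64 to 13.72, 13.68 to 13.82 and 13.90 to 14.00 in the floxed control, Cre control and cKO, a difference of 0.28 (0.00221) and 0.19 (0.0396). Its call against the Cre control was lost in 14 of 21 alternatives, with adjusted p up to 0.107. Gnaz differed by -0.45 (0.00179) and -0.34 (0.0259), the second lost in 6 of 21 alternatives. Among them were those without Cre control replicate 2 or 3 (0.0713 and 0.0928) or cKO replicate 1 or 2 (0.0932 and 0.0592). Gnaq, which activates phospholipase C rather than cyclases, was at 12.52, 12.42 and 12.52 in the floxed control, 12.47, 12.41 and 12.52 in the Cre control and 12.15, 12.21 and 12.18 in the cKO. Its differences were -0.31 (0.000945) and -0.29 (0.0079), and both calls were kept in all alternatives run.

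Downstream of cAMP, 1 of 15 phosphodiesterases, the enzymes that break cAMP down, was higher and 5 lower against the floxed control, beside 38.3% of all genes called. In the Cre control comparison 0 were called by limma, beside 9.72%, and 6 were at an unadjusted p under 0.05, beside 29.3%. Pde10a, a phosphodiesterase of striatal neurons, differed by -0.45 (adjusted p = 0.00609) and -0.25 (0.13), and Pde8a by 0.25 (0.0128, and 0.0501 without floxed control replicate 1) and 0.15 (0.143). Of 13 A-kinase anchoring proteins, which hold PKA at sites in the cell, Akap5, Akap6, Akap9 and Akap11 were lower and Akap2 higher against the floxed control, again beside 38.3% of all genes. Akap2 was at 10.32, 10.44 and 10.30 in the floxed control, 10.43, 10.53 and 10.52 in the Cre control and 10.92, 10.89 and 10.75 in the cKO, above both controls. Its differences were 0.50 (0.000452) and 0.36 (0.00905), kept in all alternatives run.

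**Figure D5:**
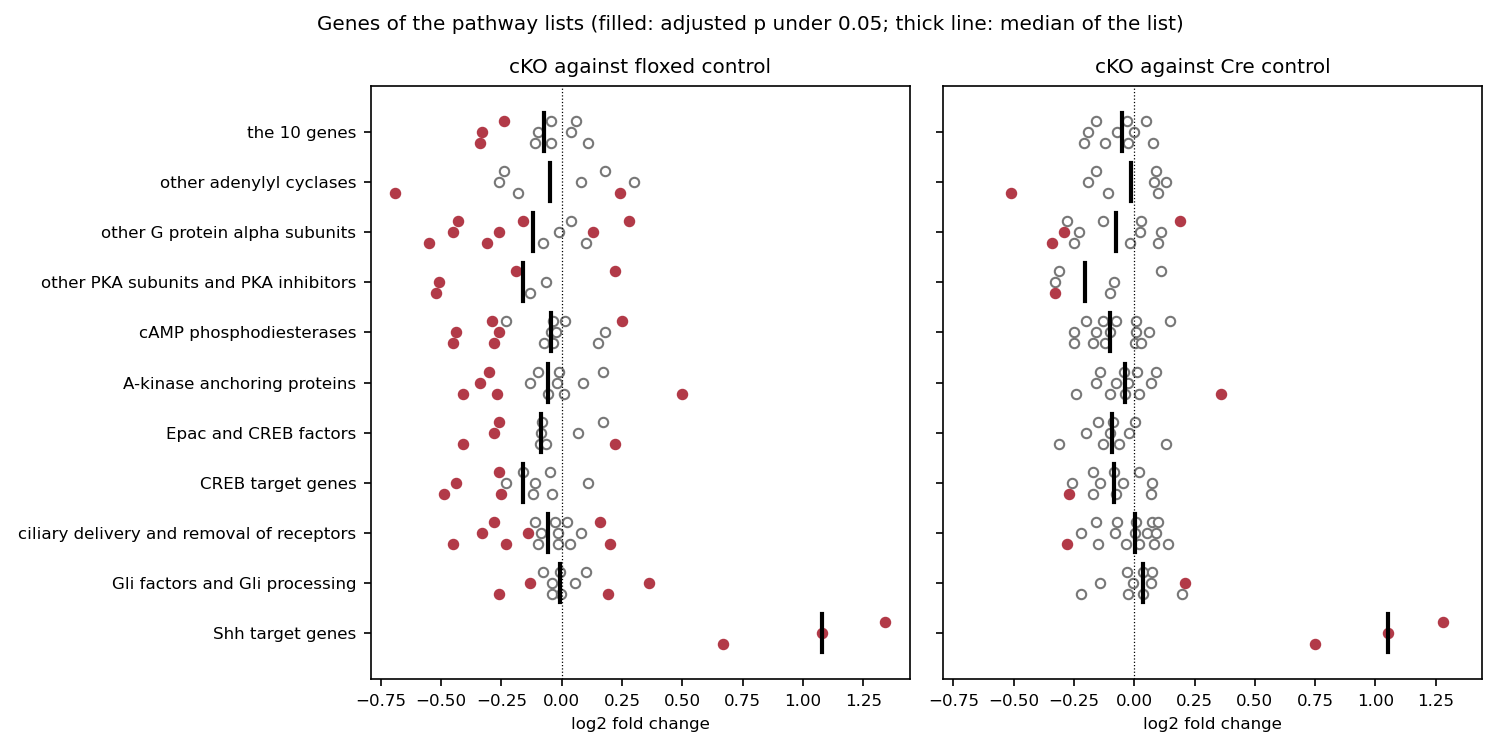
Difference in log2 value of the 10 genes and of every tested gene of each pathway list, for the cKO compared with either control, with the called genes filled and the median of each list marked. The 3 Shh targets stand apart, at 0.67 to 1.34 and 0.75 to 1.28, and the medians of the other lists lie between -0.21 and 0.037.

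Of 10 genes for Epac, the other cAMP sensor, and for CREB and its cofactors, Atf1 was higher and Rapgef4, Crebbp and Crtc1 lower against the floxed control, beside 38.3% of all genes called. In the Cre control comparison 0 were called, beside 9.72%, and 4 were at an unadjusted p under 0.05 by limma, beside 29.3%. Creb1 itself differed by -0.064 (adjusted p = 0.342) and -0.13 (0.125). Of 11 CREB target genes tested, Nr4a3, Dusp1, Ppargc1a and Bdnf were lower against the floxed control and 0 higher, beside 38.3% of all genes called, with a median of -0.16. Against the Cre control only Vgf was called, lower by 0.27 on the log2 scale (0.0359), beside 9.72% of all genes called. That call was lost in 8 of 19 other fits, among them those without floxed control replicate 3 (0.0568), Cre control replicate 2 or 3 (0.0604 and 0.104) and any of cKO replicates 1 to 3 (0.129, 0.0911 and 0.0623). For Ppargc1a the difference was -0.49 (0.00556) from the floxed and -0.17 (0.289) from the Cre control. These genes answer to other signals as well as to cAMP.

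Of 16 tested genes for the delivery of receptors to the cilium and their removal, Ift140 and Ift43, both subunits of the complex that Tulp3 binds, were higher against the floxed control, with differences of 0.16 and 0.20 (limma, adjusted p = 0.0499 and 0.0161). The call of Ift140 was lost in 13 of 20 other fits, with adjusted p up to 0.142, among them every omission of a floxed control or cKO library and that of Cre control replicate 3, and that of Ift43 after the GC content and length correction (0.124) and without floxed control replicate 1 (0.0564) or cKO replicate 1 (0.0632). The Tulp3 relatives Tub and Tulp4, the arrestins Arrb1 and Arrb2 and the receptor kinase Grk3 were lower. In all 7 of 16 were called, beside 38.3% of all genes. Grk3, which belongs to the kinases that phosphorylate active receptors ahead of arrestin, was at 9.04 to 9.17, 8.98 to 9.12 and 8.72 to 8.82 in the 3 groups, differences of -0.33 (0.00236) and -0.28 (0.0221). The second was lost in 6 of 21 alternatives. Among them were those without Cre control replicate 2 or 3 (0.0515 and 0.0520) or cKO replicate 1 or 2 (0.0891 and 0.0668). Tub differed by -0.45 (0.00595) and -0.22 (0.165).

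Among 11 genes for the Gli factors and their processing, Gli2 and Kif7 were higher and Csnk1e and Gsk3b lower against the floxed control, beside 38.3% of all genes called. Gli3, the main substrate for repressor formation, differed by -0.0089 (limma, adjusted p = 0.948) and -0.14 (0.327). Kif7, a kinesin at the tip of the cilium, was at 8.79 to 8.94, 8.83 to 8.91 and 9.05 to 9.10 in the floxed control, Cre control and cKO, and differed by 0.19 (0.0179) and 0.21 (0.0418). The first was lost without floxed control replicate 3 (0.0719) or cKO replicate 1 (0.0611), and the second in 12 of 21 alternatives, with adjusted p up to 0.144. Gsk3b, a kinase that phosphorylates Gli proteins after PKA, differed by -0.26 (0.0158) and -0.22 (0.0764), the first lost without floxed control replicate 1 or 3 (0.0554 and 0.0535) or cKO replicate 3 (0.0582).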

How the data were processed

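Poly-A selected libraries were made by the authors from midbrain tissue. They deposited 1 table of log2 values for 27360 rows, of which 5764 carry no gene name and hold 0.334% to 0.396% of the linear values. The transformation is not given in the sources used here. The submitters' processing notes name FastQC 0.10.1, kallisto 0.46.1, DESeq2 and mm10, with no role or order. The median SD between libraries was 0.00370 where the row mean lay between -3 and 0 and 0.0842 where it lay between 11 and 13. Differences of weakly expressed genes therefore appear compressed.

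Named genes were kept if their linear value reached 1 cpm in 3 or more libraries (14029, with 118 rows dropped for repeated names). With limma 3.58.1 and statmod 1.5.0 under R 4.3.3, a mean per genotype was estimated from the 9 libraries together (eBayes with a trend, two-sided), and p-values were adjusted by Benjamini-Hochberg over all genes. Within-library differences were tested with an exact permutation test. The 10 genes, the lists, drawn from general knowledge, and the alternatives were chosen with earlier results of these data known. The rule named the 10, the 5 most like Gpr161, and list genes called against both controls. Other list genes were named after their values were seen. GENCODE M21 gave positions and exon lengths, with 21000 of 21356 symbols found. On simulated data for 14029 genes with 200 changed, the cKO against floxed control fit recovered 24% of log2 changes of 0.25, 82.5% of 0.5 and 98% of 1. In the real comparison 38.3% of all genes were called, far more than were changed in the simulation. The recovered shares therefore need not hold for these data.

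Alternatives covered the filter, the scaling, the fit, the threshold, the replicate numbers and the omission of each library. Correction for GC content and transcript length was added after seeing the data. No 2 libraries held identical values. The values of 2 genes of the lists are not reported here.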

Additional observations from a re-analysis of the deposited data

How the results depend on the processing

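The count of the 10 genes called in the cKO against the floxed control was 5 with array weights, 1 at an adjusted p under 0.01 and 0 with a fold change over 1.5 as well, and 2 to 4 when each library was left out. With the Cre control as reference it was 4 with array weights, 2 with the replicate block, 3 without Cre control replicate 1 and 0 to 3 over all omissions. Between the controls it was 0 in every omission. The share of all genes called in these settings is not given here, so the changes in count cannot be set against it. Gpr161 against the floxed control was 0.14 with array weights and 0.18 after the GC content and length correction, and 0.068 to 0.18 over the omissions. In the comparison with the Cre control it turned to -0.0095 with libraries centred on their medians and -0.017 with array weights, and lay between -0.054 and 0.071 over the omissions. Tulp3 minus Gpr161 lay between -0.16 and 0.01.

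With the replicate number as a block, Adcy5 and Prkar2b passed against the Cre control (-0.21 and -0.19, adjusted p = 0.0363 and 0.0329 by limma). The labels do not tie equal numbers to a litter or day. After removal of genotype means, same-numbered libraries correlated across genes between -0.0272 and 0.26 (median 0.102) and differently numbered ones between -0.282 and 0.161 (median -0.0526), and 4 of 9 libraries correlated best with their own number in both other groups, so pairing was not assumed.

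None of the values that turned had passed the limit. Against the floxed control these were Gnas under quantile normalization (-0.032) and Adcy3 after the GC content and length correction (0.0051) and over the omissions (-0.086 to 0.01). In the cKO and Cre control comparison they were Gnas under quantile normalization (-0.036), and over the omissions Prkaca (-0.076 to 0.006) and Prkar1a (-0.072 to 0.0052). Between the controls, quantile normalization and array weights turned Gnas (0.0042 and 0.019) and Prkaca (0.0087 and 0.028), and array weights and the GC content and length correction turned Kif7 (0.011 and 0.031). Over the omissions the same comparison gave -0.057 to 0.018 for Tulp3, -0.042 to 0.031 for Gnas, -0.014 to 0.068 for Adcy3, -0.0064 to 0.11 for Adcy6, -0.049 to 0.034 for Prkaca, -0.054 to 0.0077 for Gnaq, -0.059 to 0.014 for Kif7, -0.0027 to 0.075 for Gli1 and -0.00042 to 0.11 for Hhip. The cause was not tested. Of 1320 values under the alternatives for the 10 genes and the 11 list genes called against both controls, 1217 kept direction and call, 55 lost a call and 17 gained one. Of 11 list genes named after their values were seen and called against 1 control, 6 kept that call in every fit run and 5 are given above with their losses. Depth is unknown, the values appear shrunk at low expression, and 3 libraries per genotype limit what can be told apart.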
